A study of Mus musculus with 10 samples.

Results

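Serpins are a family of protease inhibitors and of related proteins that keep the serpin fold without inhibiting a protease. An inhibitory serpin offers an exposed reactive centre loop as bait; when the protease cuts the loop, the loop folds into the body of the serpin and the protease is trapped in a covalent complex. The first residues of the loop form a hinge of small side chains, and without them the loop cannot fold in. In the heart, serpins control complement, clotting and plasmin outside cells, guard cells against their own and leukocyte proteases inside them, and in 1 case help collagen to fold.

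The 9 genes described here are Serping1, Serpina3n, Serpine2, Serpinh1, Serpinf1, Serpinb1a, Serpinb1c, Serpinb6a and Serpinb6b. They were chosen by symbol from measured values of the same mice, with their level and their difference between the genotypes known, so the difference between genotypes is given below as a description. Which of the 9 an across-gene test called is stated only beside the share of all genes called, and nothing is read from it. They are 9 of the 70 serpin genes that have a row in the table, 22 of which were at 0 in every mouse. The 9 genes held 86.5% of all counts on serpin genes. All 9 passed the filter on low counts, which asked for more than 10 counts in at least 6 of the 10 mice.

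RNA came from the apical end of the ventricle of 10 male mice, and the labels give the tissue as left ventricle. All 10 mice lacked muscle LIM protein (MLP, encoded by Csrp3), a loss that causes dilated cardiomyopathy, and all carried floxed alleles of Rrad, the gene for the calcium channel inhibitor RAD. The 5 mice labelled MLPKO had no Cre. The 5 labelled MLPKO-cRADKO also carried MYH6-MerCreMer, a recombinase that is made from a cardiomyocyte promoter and acts once tamoxifen is given, so that Rrad is deleted in cardiomyocytes and not in other cells. Every mouse received 100 mg/kg of tamoxifen at 10 weeks of age, and the hearts were taken 1 month later according to the methods and at 16 weeks of age according to the labels. MLPKO mice with Cre and unfloxed Rrad, and healthy MLP+/+ mice, were not among these samples, so effects of Cre with tamoxifen and of Rrad loss cannot be told apart. The question of the comparison was how the transcriptome of an already dilated heart changes once RAD is lost.

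Libraries held 33457406 to 49965101 counts each. Rrad had normalized counts of 10849, 11067, 5774, 6751 and 11644 in MLPKO mice 1 to 5 and of 8122, 5562, 8361, 6049 and 7258 in MLPKO-cRADKO mice 1 to 5, so the genotypes overlapped; the gene count sums all exons and all cell types and does not show whether the floxed part is missing. Csrp3 likewise still gave 28551 to 134804 normalized counts in these MLP-deficient mice. Its means were 73421 ± 37896 in MLPKO and 34730 ± 8159 in MLPKO-cRADKO (SD, n = 5 each), with overlap. The log2 fold change was −1.08 (SE 0.29, edgeR adjusted p = 0.0666, DESeq2 adjusted p = 0.0362). MLPKO mouse 2 stood apart from the other 9 mice, at 55.7 on the first principal component of log2 scaled counts against −24.0 to 22.5, and the values that move most with it are given with and without it. Of 13452 genes tested, 369 were called between the genotypes (edgeR quasi-likelihood test, Benjamini-Hochberg adjusted p under 0.05), which is 2.74% of them: 242 lower in MLPKO-cRADKO (1.80%) and 127 higher (0.944%). Counts of calls below are those of edgeR unless another tool is named. The counts of the genotypes did not overlap for 6.62% of all genes tested. An unadjusted p under 0.05 was reached by 21.6% of all genes tested, the share to set beside each count of unadjusted p below. DESeq2 called 1298 of the 13452 genes and limma-voom 340, the background for each count of their calls below.

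The coding sequences of the reactive centre loops show how the 9 proteins differ, and they are printed for the genes that the results below turn on. Each runs from the glycine codon of the hinge to the proline and phenylalanine codons that end the loop, on GRCm39, and capitals mark the 8 hinge codons.
Serping1 (chr2:84595990-84596064, minus strand): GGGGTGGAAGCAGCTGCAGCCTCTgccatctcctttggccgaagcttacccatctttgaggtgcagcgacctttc
Serpina3n (chr12:104379707-104379796, plus strand): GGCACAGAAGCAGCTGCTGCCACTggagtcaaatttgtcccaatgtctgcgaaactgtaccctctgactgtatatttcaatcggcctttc
Serpinh1 (chr7:98995420-98995497, minus strand): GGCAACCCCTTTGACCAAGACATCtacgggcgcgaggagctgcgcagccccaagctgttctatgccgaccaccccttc
Serpinb1a (chr13:33026867-33026953, minus strand): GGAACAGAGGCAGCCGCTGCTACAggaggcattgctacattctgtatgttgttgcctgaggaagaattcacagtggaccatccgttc
Serpinb1c (chr13:33065882-33065965, minus strand): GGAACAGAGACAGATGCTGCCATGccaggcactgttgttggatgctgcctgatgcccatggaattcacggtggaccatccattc
Serpinb6a (chr13:34102090-34102176, minus strand): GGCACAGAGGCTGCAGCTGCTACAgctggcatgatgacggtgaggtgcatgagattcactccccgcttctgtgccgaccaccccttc
Serpinb6b (chr13:33162190-33162270, plus strand): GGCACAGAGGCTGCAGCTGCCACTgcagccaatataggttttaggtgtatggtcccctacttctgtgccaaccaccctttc
Of the 8 hinge codons, 7 encode a small residue (alanine, glycine, serine or threonine) in Serpina3n, Serpine2, Serpinb1a, Serpinb6a and Serpinb6b, and 6 do in Serping1. Serpinb1c has 5, with 2 alanine codons where its neighbour Serpinb1a has 4. Serpinh1, a chaperone and no inhibitor, has 1 such codon and no alanine, and Serpinf1, which also inhibits no protease, has 6 with 2 proline codons among them. Over the coding sequence, Serpinb1a and Serpinb1c had 90.3% of their aligned bases in common, and Serpinb6a and Serpinb6b 87.2%; over the loop these shares were 83.3% and 84.8%. In windows of 100 bases, no stretch of the canonical transcript of Serpinb1a, Serpinb1c, Serpinb6b, Serping1, Serpina3n, Serpinh1 or Serpine2 was found unchanged in a transcript of another gene. For Serpinf1 the share of such windows was 1.93%, all in Smyd4, and for Serpinb6a it was 5.74%, all in 1110046J04Rik; both of these genes overlap the serpin on the opposite strand. Serpinb1a also overlaps Wrnip1, and Serpinb6a overlaps Nqo2 and Ripk1, on the opposite strand, and since it is not given whether the counting used strand, reads from such shared stretches cannot be told apart.

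The levels of the 9 genes spanned more than an order of magnitude. Per kilobase of merged exons, the mean over the 10 mice was 32.7 ± 5.41 CPM, counts scaled to the same total in every library (SD, n = 10), for Serping1 and 31.0 ± 8.11 for Serpinh1, the 2 highest. Serpinb6b followed at 17.98 ± 5.39, then Serpinb6a at 10.2 ± 0.509 and Serpinf1 at 10.2 ± 3.01. Lower levels were those of Serpina3n (6.26 ± 6.23), Serpine2 (2.96 ± 0.481), Serpinb1c (1.51 ± 1.80) and Serpinb1a (1.13 ± 0.406). Ranges over the mice overlapped between each gene and the next in this order, apart from Serpinb6b and Serpinb6a, whose ranges of 11.14 to 25.6 and 9.26 to 11.11 CPM per kilobase barely parted. Dividing by the longest transcript in place of merged exons raised Serpine2 to 10.8 ± 1.75 and Serpinb6a to 21.6 ± 1.08, put Serpine2 above Serpina3n and Serpinb1a above Serpinb1c, and brought the Serpinb6b and Serpinb6a ranges into overlap.

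**Figure D1:**
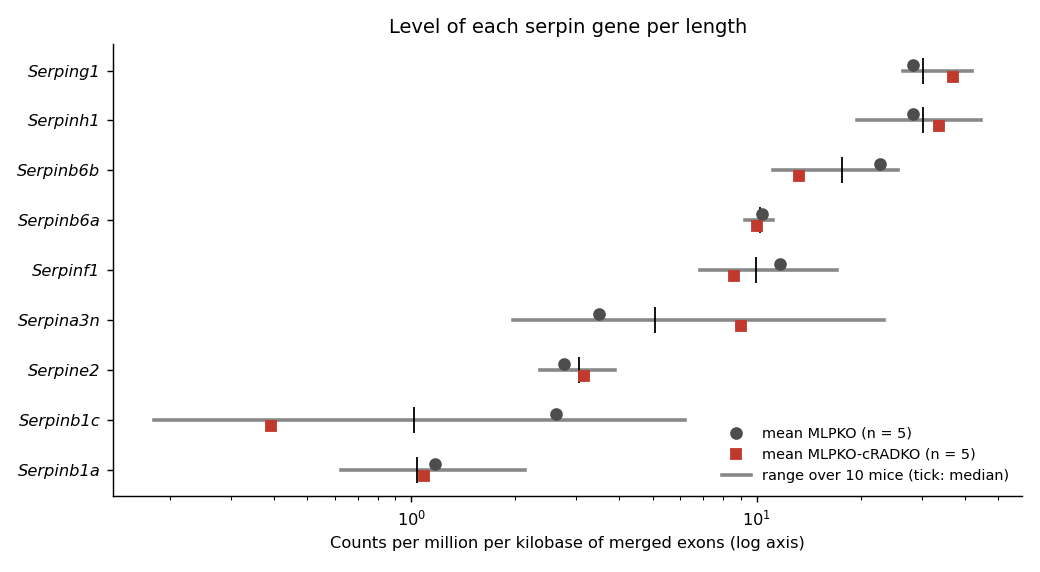
CPM per kilobase of merged exons (horizontal log axis) for each of the 9 genes. Grey lines span all 10 mice with the median as a tick, circles are the means of 5 MLPKO mice and squares the means of 5 MLPKO-cRADKO mice. Serping1 and Serpinh1 are the highest, and the genotype means lie farthest apart for Serpinb1c.

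Among the 9 genes, 3 were called between genotypes: Serpinb1c and Serpinb6b were lower in MLPKO-cRADKO and Serping1 was higher. The background of calls is the 2.74% given above, and since the genes were chosen with this contrast known, nothing is read from the count. These 3 were also the genes of the 9 whose genotypes did not overlap, beside 6.62% of all genes tested, and nothing is read from that count either. The median log2 fold change of the 9 genes was −0.05, beside 0.01 over all genes tested.

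Serping1 encodes C1 inhibitor, the secreted inhibitor of the first complement proteases C1r and C1s and of plasma kallikrein and factor XII. Its normalized counts were 3317, 3657, 3705, 3579 and 3507 in MLPKO mice 1 to 5 and 4726, 4849, 5271, 3873 and 4527 in MLPKO-cRADKO mice 1 to 5. Every MLPKO-cRADKO mouse lay above every MLPKO mouse, with mouse 4 the lowest of them. The means were 3553 ± 152 (SD, n = 5) and 4649 ± 512 (SD, n = 5), a log2 fold change of 0.39 (SE 0.076). Leaving out any single mouse kept it between 0.35 and 0.45, and it was not among the genes called without MLPKO mouse 1 or 5 or without MLPKO-cRADKO mouse 2, 3 or 5.

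The C1 and lectin pathway proteases that C1 inhibitor acts on were a list of 6 genes, of which 4 were tested, 1 was called higher and none lower, with 2 log2 fold changes above 0 and 2 below. Of the 4, 3 had an unadjusted p under 0.05, and DESeq2 called 3: C1s1, C1ra and Masp1. C1s1, the mouse gene for the protease C1s, had normalized counts of 759, 865, 916, 893 and 948 in MLPKO and 1150, 1195, 1569, 1021 and 1271 in MLPKO-cRADKO mice. The genotypes did not overlap, and the log2 fold change was 0.50 (SE 0.11, edgeR adjusted p = 0.0334). C1s1 was not called in 5 of the 10 fits that left out 1 mouse, those without MLPKO mouse 1 or 5 or MLPKO-cRADKO mouse 2, 3 or 5 (edgeR adjusted p = 0.0549 to 0.079). C1ra, encoding C1r, had 591 ± 37.1 and 759 ± 97.5 (SD, n = 5 each) without overlap (log2 fold change 0.36). It missed the threshold in edgeR (adjusted p = 0.0586) and was called by DESeq2 (adjusted p = 0.0114). Masp1, a lectin pathway protease named here after its values were seen, lay the other way at 2386 ± 736 and 1270 ± 445 with overlap (SD, n = 5 each, log2 fold change −0.91, SE 0.25); edgeR did not call it (adjusted p = 0.0678) and DESeq2 did (adjusted p = 0.0316). Serping1 and C1s1 are both made by fibroblasts, endothelial cells and macrophages. The 6 endothelial markers had summed levels of 1072 to 1220 CPM in MLPKO-cRADKO and 874 to 1015 in MLPKO, without overlap. Tek was called higher among them (log2 fold change 0.32, edgeR adjusted p = 0.0196), and DESeq2 called 3, Fabp4, Kdr and Tek. All 6 had a log2 fold change above 0 (median 0.26) and an unadjusted p under 0.05. The 8 macrophage markers reached 216 to 464 against 178 to 260 CPM. None of the 8 was called by edgeR or limma-voom, and DESeq2 called 3, Adgre1, Csf1r and Lyz2, beside 1298 of all 13452 genes tested. All 8 had a log2 fold change above 0 (median 0.46) and an unadjusted p under 0.05, beside 21.6% of all genes tested. The 7 fibroblast markers reached 2042 to 2900 against 1907 to 2523 CPM, with 4 log2 fold changes above 0 and 3 below (median 0.08) and Dpt called higher. Their part in the Serping1 difference was not tested. Since this is bulk tissue, fewer cells of a type and less RNA per cell cannot be told apart for any gene below or above. Interferon is known to induce Serping1, and of the 16 interferon response genes 0 were called by edgeR, DESeq2 or limma-voom and 0 had an unadjusted p under 0.05 (median log2 fold change 0.06). The highest in level, B2m and Gbp2, had log2 fold changes of −0.04 and −0.07. Whether interferon had a part in the Serping1 difference was not tested.

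Serpina3n is 1 of several mouse counterparts of antichymotrypsin, a secreted acute phase protein that also inhibits granzyme B. Its normalized counts were 524, 861, 318, 353 and 774 in MLPKO and 1039, 518, 3773, 1060 and 900 in MLPKO-cRADKO mice 1 to 5. MLPKO-cRADKO mouse 3 stood far above the other 9 mice, while mouse 2 of that genotype fell within the range of MLPKO, so the genotypes overlapped. The means were 566 ± 244 and 1458 ± 1312 (SD, n = 5 each), a log2 fold change of 1.37 (SE 0.49), which became 0.65 without MLPKO-cRADKO mouse 3. It was the widest spread of the 9 genes in MLPKO-cRADKO, with a coefficient of variation of 90.0%.

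The acute phase and STAT3 response genes, which commonly move with Serpina3n, were 19 genes with 15 tested, 1 called higher and none lower. The gene called was Lrg1, a secreted glycoprotein, at 339 ± 48.6 and 480 ± 56.7 (log2 fold change 0.50, edgeR adjusted p = 0.0462, n = 5 each, no overlap). It was called in only 2 of the 10 fits that left out 1 mouse, those without MLPKO mouse 3 or 4; in the other 8 its edgeR adjusted p was 0.0606 to 0.105. Limma-voom did not call it (adjusted p = 0.0529), nor did edgeR without the filter (adjusted p = 0.0501). DESeq2 called 3 of the 15: Lrg1 and Steap4 higher (adjusted p = 0.00354 and 0.0445) and Il6st lower (adjusted p = 0.0157). Steap4 had a log2 fold change of 0.36 with overlap, and Il6st one of −0.17 without overlap. An unadjusted p under 0.05 was reached by 5 of the 15. Stat3 and Cebpb, the highest of the list in level, had log2 fold changes of −0.19 and −0.22 (edgeR adjusted p = 0.402 and 0.358). The granule protease list was near the limit of detection. It includes the granzymes, and also Mpo and Prf1, which are not proteases. Of its 12 genes 3 were tested, 0 were called by edgeR, DESeq2 or limma-voom, and 0 had an unadjusted p under 0.05. Cma1 and Mcpt4, mast cell proteases, had log2 fold changes of 0.03 and −0.03. Elane and Mpo were at 0 in every mouse, and the summed level of the list was at most 4.15 CPM in any mouse. In the mouse with the highest Serpina3n, MLPKO-cRADKO mouse 3, the summed macrophage markers were also at their highest, 464 CPM. Haptoglobin, Hp, another acute phase gene and named here after its values were seen, had normalized counts of 9.56, 15.7, 22.9, 2.21 and 18.2 in MLPKO and 4.95, 14.4, 883, 29.5 and 68.3 in MLPKO-cRADKO mice 1 to 5. Its highest mouse was again MLPKO-cRADKO mouse 3, the genotypes overlapped, and it was not called (log2 fold change 3.82, SE 1.25, edgeR adjusted p = 0.108). Without that mouse Hp stood at a log2 fold change of 1.09.

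Serpine2 encodes protease nexin 1, which holds thrombin and the plasminogen activators in check at the cell surface. Its normalized counts were 1600, 1619, 1204, 1197 and 1412 in MLPKO and 1975, 1505, 1692, 1268 and 1606 in MLPKO-cRADKO mice. The genotypes overlapped over most of their range (1406 ± 205 and 1609 ± 259, SD, n = 5 each, log2 fold change 0.19, SE 0.12). Of the plasminogen system, 4 of 5 genes were tested, 0 were called by edgeR, DESeq2 or limma-voom and 1 had an unadjusted p under 0.05; Plat and Plau, the plasminogen activators, had log2 fold changes of −0.06 and −0.44 (edgeR adjusted p = 0.896 and 0.194). The contact and coagulation list had 2 of 9 genes tested, with 0 called by edgeR, DESeq2 or limma-voom and 0 at an unadjusted p under 0.05, tissue factor F3 at −0.09 and the thrombin receptor F2r at −0.24 (edgeR adjusted p = 0.724 and 0.412). Without MLPKO mouse 2, F2r was at −0.05. The liver-made clotting proteases did not pass the filter, and F11 was at 0 in all mice.

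Serpinh1, also called HSP47, is the collagen chaperone of the endoplasmic reticulum and has no protease target. Its normalized counts were 7334, 12399, 6960, 5663 and 8735 in MLPKO and 10421, 12930, 8858, 9330 and 7419 in MLPKO-cRADKO mice. The highest mouse of each genotype was mouse 2, and the genotypes overlapped (8218 ± 2581 and 9791 ± 2059, SD, n = 5 each, log2 fold change 0.25, SE 0.20). The difference was 0.45 without MLPKO mouse 2 or lower in each of the other fits that left out 1 mouse, down to 0.14. Its clients and partners in collagen folding were 2 lists. Among 20 genes of folding and modification, P4ha2, a prolyl hydroxylase subunit, was called lower and none was called higher: 3439, 3718, 3034, 2581 and 3522 in MLPKO against 2518, 2346, 2551, 2269 and 2088 in MLPKO-cRADKO, a log2 fold change of −0.47 (SE 0.097, edgeR adjusted p = 0.0314) without overlap. P4ha2 was not called without MLPKO mouse 1 or 5 or MLPKO-cRADKO mouse 2, 3, 4 or 5 (edgeR adjusted p = 0.0572 to 0.0805). P4hb and P4ha1, the highest of that list in level, had log2 fold changes of −0.29 and −0.50 and were not called by edgeR (adjusted p = 0.0728 and 0.197). DESeq2 called 3 of the 20: P4ha2, P4hb (adjusted p = 0.0163) and Colgalt2 (adjusted p = 0.0217). Colgalt2 lay the other way, higher in MLPKO-cRADKO without overlap (log2 fold change 0.38, edgeR adjusted p = 0.0728). Of the 20 folding genes, 7 had an unadjusted p under 0.05, and 8 had a log2 fold change above 0 and 12 below. Of 16 collagens 0 were called by edgeR, DESeq2 or limma-voom, and 1 had an unadjusted p under 0.05. Col4a1 and Col4a2 had log2 fold changes of −0.24 and −0.33 (edgeR adjusted p = 0.531 and 0.353), and of −0.01 and −0.11 without MLPKO mouse 2. Serpinh1 thus had a log2 fold change above 0 beside medians of −0.10 for the folding genes and −0.09 for the collagens; that difference itself was not tested.

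Serpinf1 encodes pigment epithelium-derived factor, a secreted protein that acts through cell surface receptors and inhibits no protease. Its normalized counts were 1521, 2563, 1727, 1341 and 1614 in MLPKO and 1769, 1095, 1467, 1024 and 1105 in MLPKO-cRADKO mice. In MLPKO-cRADKO, 3 mice lay below all MLPKO mice, while mice 1 and 3 lay within their range (1753 ± 474 and 1292 ± 318, SD, n = 5 each). The log2 fold change was −0.44 (SE 0.19), and −0.27 without MLPKO mouse 2. Of 5 genes for its receptors, all were tested, 0 were called by edgeR, DESeq2 or limma-voom and 1 had an unadjusted p under 0.05. Pnpla2, the lipase that binds it, had a log2 fold change of −0.10 and Rpsa one of 0.13 (edgeR adjusted p = 0.527 and 0.684).

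The remaining 4 genes belong to clade B, serpins without a signal peptide that work inside cells. They lie in 1 cluster of 17 Serpinb genes and pseudogenes on chromosome 13, from 33026042 to 34186812 on GRCm39, over 1160.8 kb. Only 5 of the 17 passed the filter, the 4 described here and Serpinb9; the other 12 had at most 15 counts in any mouse. Serpinb1a, Serpinb1c, Serpinb6b and Serpinb9 sit at the start of the cluster, and Serpinb6a closes it.

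Serpinb1a encodes the leukocyte elastase inhibitor, which blocks neutrophil elastase and related granule proteases. It had normalized counts of 115, 245, 104, 115 and 94.8 in MLPKO and 136, 72.0, 151, 124 and 142 in MLPKO-cRADKO mice. MLPKO mouse 2 was high and the other 9 mice ran together (135 ± 62.2 and 125 ± 31.3, SD, n = 5 each). The log2 fold change was −0.10 (SE 0.28), and it was 0.22 without MLPKO mouse 2.

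Serpinb1c, its neighbour copy, had normalized counts of 128, 473, 115, 102 and 187 in MLPKO and 38.3, 19.8, 53.1, 13.8 and 25.2 in MLPKO-cRADKO mice, from raw counts of 93 to 361 and 15 to 47. All MLPKO-cRADKO mice lay below all MLPKO mice, and MLPKO mouse 2 stood far above its group. The MLPKO-cRADKO mean of 30.1 ± 15.7 was 14.9% of the MLPKO mean of 201 ± 155 (SD, n = 5 each), a log2 fold change of −2.75 (SE 0.49). It was −2.17 without MLPKO mouse 2, and Serpinb1c was not among the genes called without MLPKO mouse 5 or without MLPKO-cRADKO mouse 2, 4 or 5. Within a mouse, the ratio of Serpinb1c to Serpinb1a counts was 0.894 to 1.97 in MLPKO and 0.111 to 0.351 in MLPKO-cRADKO, without overlap, and Serpinb1c was below Serpinb1a in every MLPKO-cRADKO mouse.

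Serpinb6a inhibits trypsin-like proteases and cathepsin G, and of the 9 genes it varied least over the 10 mice relative to its mean. Its normalized counts were 3233, 3298, 3345, 2911 and 3490 in MLPKO and 3242, 3201, 3090, 3098 and 3119 in MLPKO-cRADKO mice. The MLPKO-cRADKO values lay within the range of MLPKO (3255 ± 215 and 3150 ± 67.7, SD, n = 5 each, log2 fold change −0.05, SE 0.055). Serpinb6b, its paralog, had normalized counts of 2724, 2864, 3427, 2920 and 3470 in MLPKO and 1994, 1512, 1819, 1593 and 2078 in MLPKO-cRADKO mice. All MLPKO-cRADKO mice lay below all MLPKO mice, and the means were 3081 ± 343 and 1799 ± 245 (SD, n = 5 each), a log2 fold change of −0.78 (SE 0.10). Leaving out each mouse gave −0.83 to −0.72. The ratio of Serpinb6b to Serpinb6a counts was 0.843 to 1.03 in MLPKO and 0.472 to 0.666 in MLPKO-cRADKO.

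**Figure D2:**
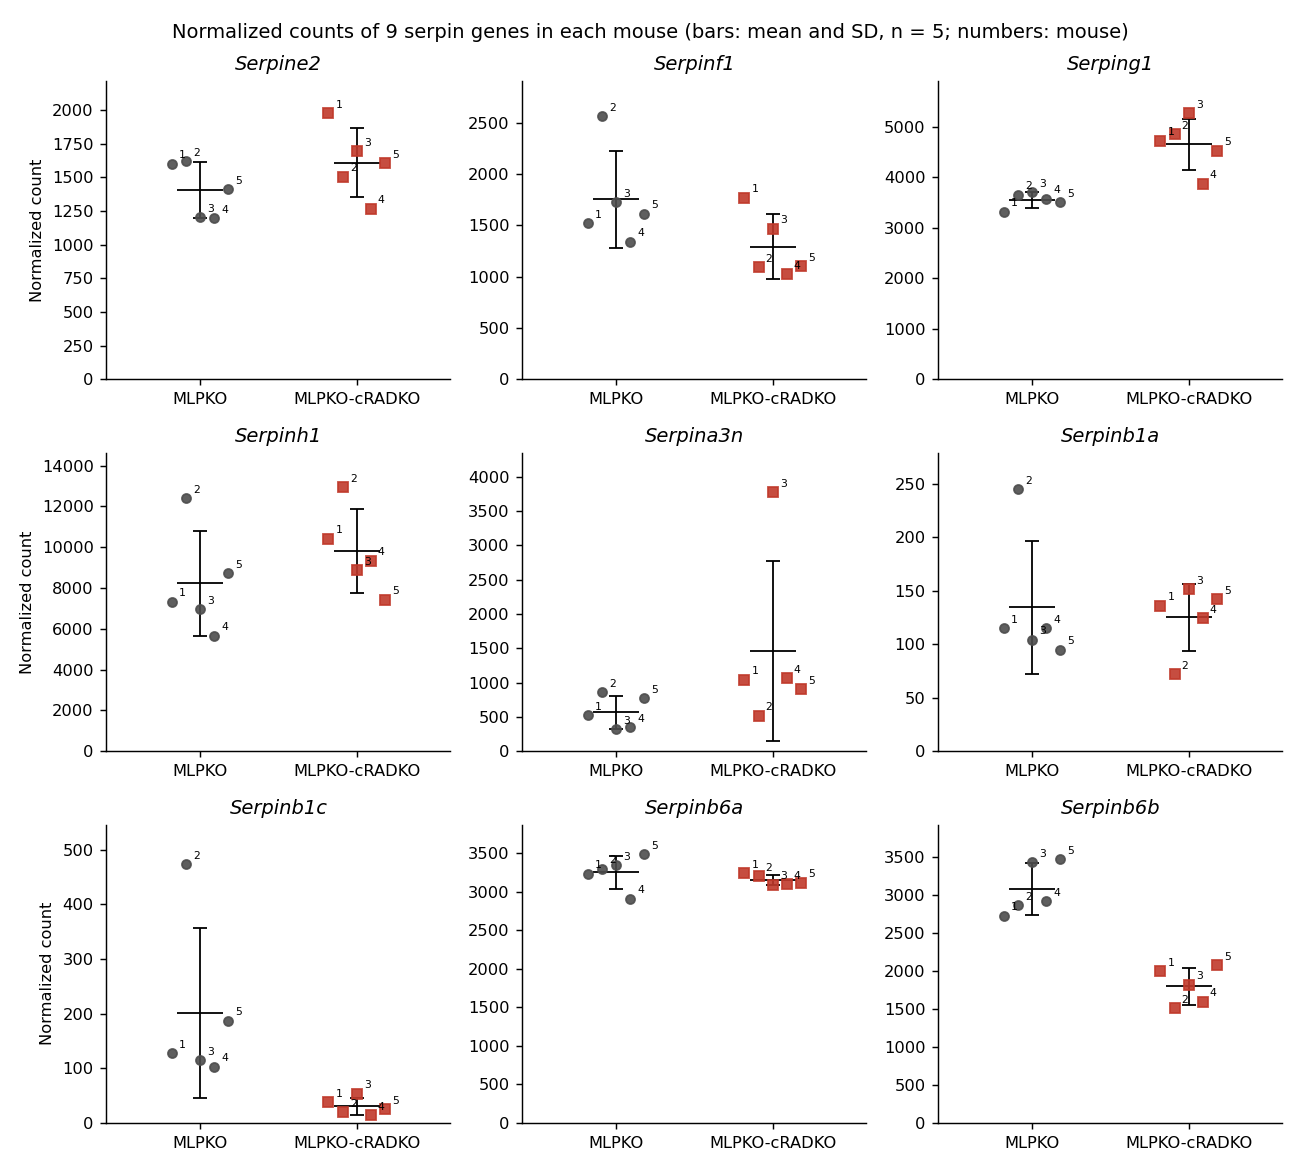
Normalized counts (vertical axes, linear from 0) of the 9 genes in each of 5 MLPKO mice (circles) and 5 MLPKO-cRADKO mice (squares), with mouse numbers, means and SD. The genotypes separate for Serping1, Serpinb1c and Serpinb6b; single high mice are MLPKO-cRADKO mouse 3 for Serpina3n and MLPKO mouse 2 for Serpinb1a and Serpinb1c.

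**Figure D3:**
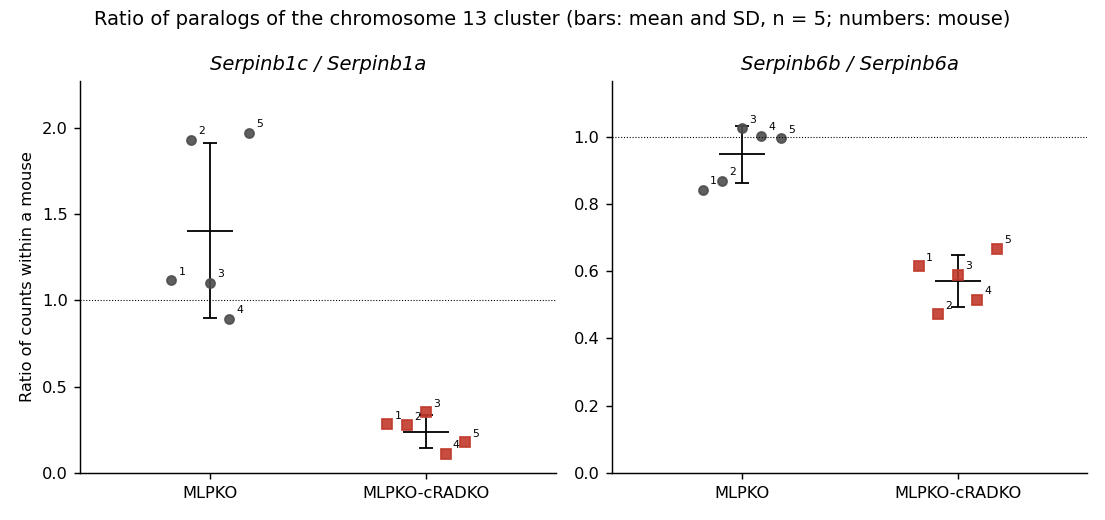
Ratio of the counts of paralogs within each mouse (vertical axes, linear from 0), for 5 mice per genotype with mean and SD. Both ratios are lower in every MLPKO-cRADKO mouse, at 0.111 to 0.351 for Serpinb1c over Serpinb1a and 0.472 to 0.666 for Serpinb6b over Serpinb6a.

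The 2 genes called lower in MLPKO-cRADKO are neighbours. Serpinb1c (33065201 to 33082194, minus strand) and Serpinb6b (33073279 to 33163050, plus strand) overlap as genes, through a Serpinb6b transcript that begins upstream of the canonical one. Their exons shared 0 bases over all annotated transcripts, and the canonical start sites were 66990 bases apart, so the exon counts of the genes share no position. The regions before the start sites of Serpinb1a and Serpinb1c are copies as well, and the stretch that aligned is shown for each to let the pair be compared; capitals mark bases that differ between them or lie opposite a gap.
Serpinb1a (chr13:33035218-33035356, minus strand): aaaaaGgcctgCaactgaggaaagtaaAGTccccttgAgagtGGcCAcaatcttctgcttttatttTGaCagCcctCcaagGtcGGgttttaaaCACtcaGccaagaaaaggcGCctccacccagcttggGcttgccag
Serpinb1c (chr13:33082195-33082332, minus strand): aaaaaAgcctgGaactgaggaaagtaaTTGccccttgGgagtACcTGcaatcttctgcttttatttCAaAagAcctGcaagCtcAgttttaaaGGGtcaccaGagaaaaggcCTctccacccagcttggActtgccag
In the Serpinb1a sequence shown, 7 bases lie in an exon of an annotated serpin transcript. Over 137 aligned bases, 83.2% were identical. The stretch reaches the canonical start of Serpinb1c, while in Serpinb1a another 49 bases lie between it and the start, and these hold the sequence TATAAA, which begins 26 bases before the start. Serpinb1c has no TATAAA in the 250 bases before its start, but bases matching those 49 would lie after its start and were not searched. Whether Serpinb1c has a matching TATAAA is therefore not shown. Of 21770 promoters of protein-coding genes, 11.9% held TATAAA on either strand. The same windows of the 9 genes were searched on both strands for the STAT core TTCNNNGAA, which 7.70% of all promoters held. They were also searched for the core GAAANNGAA of interferon response elements (7.55% of all promoters), for the paired unit GAANNTTC of heat shock elements (6.33%) and for the GATA sequence AGATAA (9.60%). The first 3 of these were found in none of the 9 windows, and AGATAA was found in those of Serpinf1 and Serping1, in the latter on the opposite strand.

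Proteases that the clade B serpins guard against were sought in the granule protease list, given above, and among 10 cysteine proteases and caspases, of which all were tested and 0 called by edgeR or limma-voom (median log2 fold change 0.26, 7 of 10 above 0, 4 of 10 at an unadjusted p under 0.05). DESeq2 called 2 of them, named here for that reason. Ctss, cathepsin S, had 322 ± 50.9 and 536 ± 147 normalized counts without overlap (SD, n = 5 each, log2 fold change 0.73, edgeR adjusted p = 0.0518, DESeq2 adjusted p = 0.00286). Ctsc, cathepsin C, had 814 ± 172 and 1260 ± 250 with overlap (SD, n = 5 each, log2 fold change 0.63, edgeR adjusted p = 0.0557, DESeq2 adjusted p = 0.00419). Ctsb and Ctsl, the most abundant of these, had log2 fold changes of 0.01 and −0.05 (edgeR adjusted p = 0.956 and 0.789). Neutrophil markers, whose cells hold much Serpinb1a in blood, summed to 1.28 to 2.06 CPM in MLPKO and 1.44 to 4.52 in MLPKO-cRADKO, with Mpo at 0. Markers of mast cells, T and NK cells, Schwann cells, skeletal muscle and atrium each summed to at most 24.6 CPM in any mouse, and mural cell markers to 728 to 940 in MLPKO and 918 to 1019 in MLPKO-cRADKO. The mural marker Rgs5 was called higher without overlap (log2 fold change 0.44, edgeR adjusted p = 0.0319). It was not called in 8 of the 10 fits that left out 1 mouse, the exceptions being those without MLPKO mouse 2 or 4. Of the 5 mural markers, 4 had a log2 fold change above 0 and 1 below (median 0.14), with Myh11 at 0.01 and Pdgfrb at −0.01. The 7 cardiomyocyte markers summed to 47840 to 59080 CPM in MLPKO-cRADKO and 60860 to 71210 in MLPKO, without overlap. Of them 6 had a log2 fold change below 0 and 1 above, Tnni3 at 0.13. Tnnt2 was called lower (log2 fold change −0.57, edgeR adjusted p = 0.0185). Myh6, the highest of them in level, was at −0.29, called by DESeq2 (adjusted p = 0.0193) but not by edgeR (adjusted p = 0.104). The part of these markers in the lower Serpinb1c and Serpinb6b was not tested.

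Receptors that clear serpin and protease complexes, with their cofactors, were 11 genes, all tested, with 1 called lower and none higher. That gene was Lrp8, an apolipoprotein E receptor of the LDL receptor family. Its normalized counts were 592, 1740, 307, 186 and 1001 in MLPKO and 199, 122, 89.2, 84.7 and 103 in MLPKO-cRADKO mice. MLPKO mouse 4 lay within the range of MLPKO-cRADKO and the other 4 MLPKO mice above it (log2 fold change −2.68, SE 0.54, edgeR adjusted p = 0.0294), and the log2 fold change was −2.14 without MLPKO mouse 2. Limma-voom did not call it (adjusted p = 0.101), nor did edgeR without MLPKO mouse 1 or 5 or MLPKO-cRADKO mouse 2, 3, 4 or 5 (adjusted p = 0.0575 to 0.0783). Vldlr and Lrp1, the highest of the list in level, had log2 fold changes of −0.01 and 0.07, and Lrp1 one of 0.23 without MLPKO mouse 2. DESeq2 called 2 of the 11, Lrp8 lower and Vtn higher. Vtn had a log2 fold change of 0.47 with overlap (edgeR adjusted p = 0.0692, DESeq2 adjusted p = 0.0155). An unadjusted p under 0.05 was reached by 4 of the 11. Over all lists, 4 of 106 partner genes tested were called, 2 higher and 2 lower, beside 2.74% of all genes tested. Their median log2 fold change over the 106 was −0.02, and 26 of them (24.5%) had an unadjusted p under 0.05, beside 21.6% of all genes tested. Leaving out each mouse gave 0 to 9 called, with 0 without MLPKO mouse 1 or 5 or MLPKO-cRADKO mouse 3 or 5, 1 without MLPKO-cRADKO mouse 2 or 4, and 9 without MLPKO mouse 4.

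**Figure D4:**
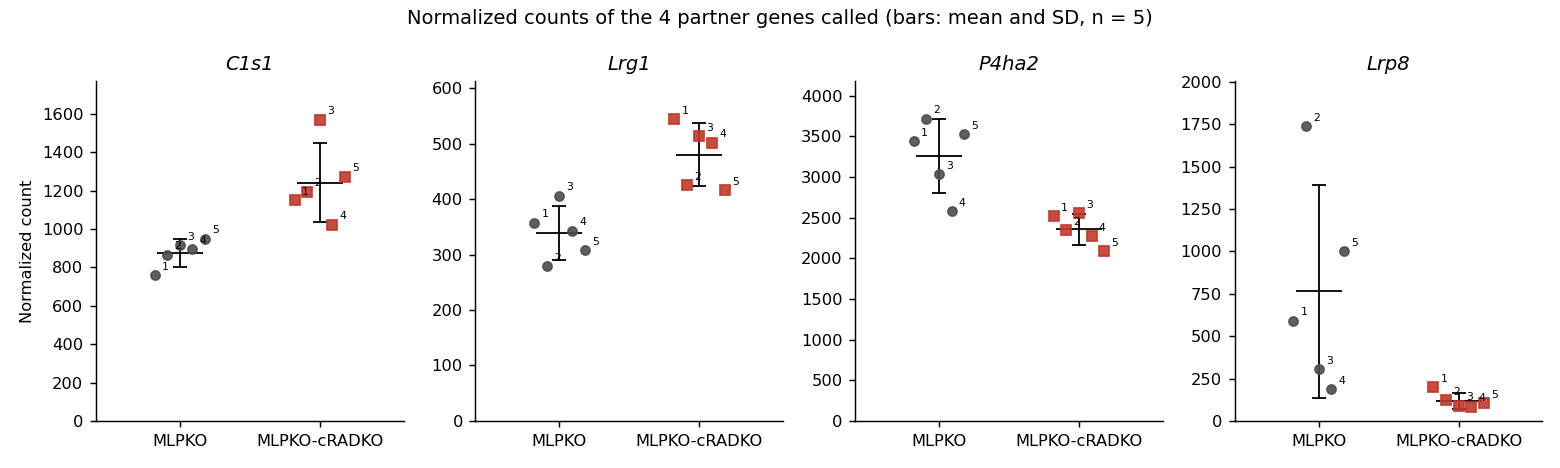
Normalized counts (vertical axes, linear from 0) of C1s1, Lrg1, P4ha2 and Lrp8 in each of 5 MLPKO mice (circles) and 5 MLPKO-cRADKO mice (squares), with mouse numbers, means and SD. The genotypes separate for C1s1, Lrg1 and P4ha2, and MLPKO mouse 4 falls among MLPKO-cRADKO mice for Lrp8.

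Of the serpin genes outside the 9, 8 that passed the filter are given here, and 0 were called by edgeR or limma-voom; 3 had an unadjusted p under 0.05 (Serpina1b, Serpina1d and Serpinb9), beside 2900 of all 13452 genes tested (21.6%), and DESeq2 called 1, Serpina1b. Of the 8, 5 had a log2 fold change above 0 and 3 below, and the genotypes overlapped for all 8. Serpina1b, 1 of the liver-type copies of alpha-1 antitrypsin, had 20.6 ± 12.6 normalized counts in MLPKO and 71.4 ± 32.9 in MLPKO-cRADKO (SD, n = 5 each, log2 fold change 1.75, SE 0.48, edgeR adjusted p = 0.0673). It was called without MLPKO-cRADKO mouse 2 (edgeR adjusted p = 0.0499). Serpina1d and Serpina1e had log2 fold changes of 1.88 and 1.16 from means of 8.47 to 35.1; the Serpina1 copies are near-identical, and how reads that fit several of them were counted is not given in the sources used here, so the split between them is uncertain. The hepatocyte markers summed to at most 0.927 CPM in any mouse. Serpina3c, in the same family as Serpina3n, had 30.9 ± 33.4 and 61.5 ± 48.3 (log2 fold change 0.96), and Serpinb8, a clade B serpin, had 47.8 ± 22.7 and 74.6 ± 21.4 (0.65, and 0.92 without MLPKO mouse 2). Serpinb9, the inhibitor of granzyme B, had 859 ± 229 and 674 ± 60.1 (log2 fold change −0.35, SE 0.15, edgeR adjusted p = 0.196), and −0.17 without MLPKO mouse 2. Serpind1, heparin cofactor II, and Serpini1, neuroserpin, had log2 fold changes of −0.37 and −0.04. Of the 52 serpin genes that did not pass, 22 were at 0 in every mouse and 30 had a count, of at most 38.

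**Figure D5:**
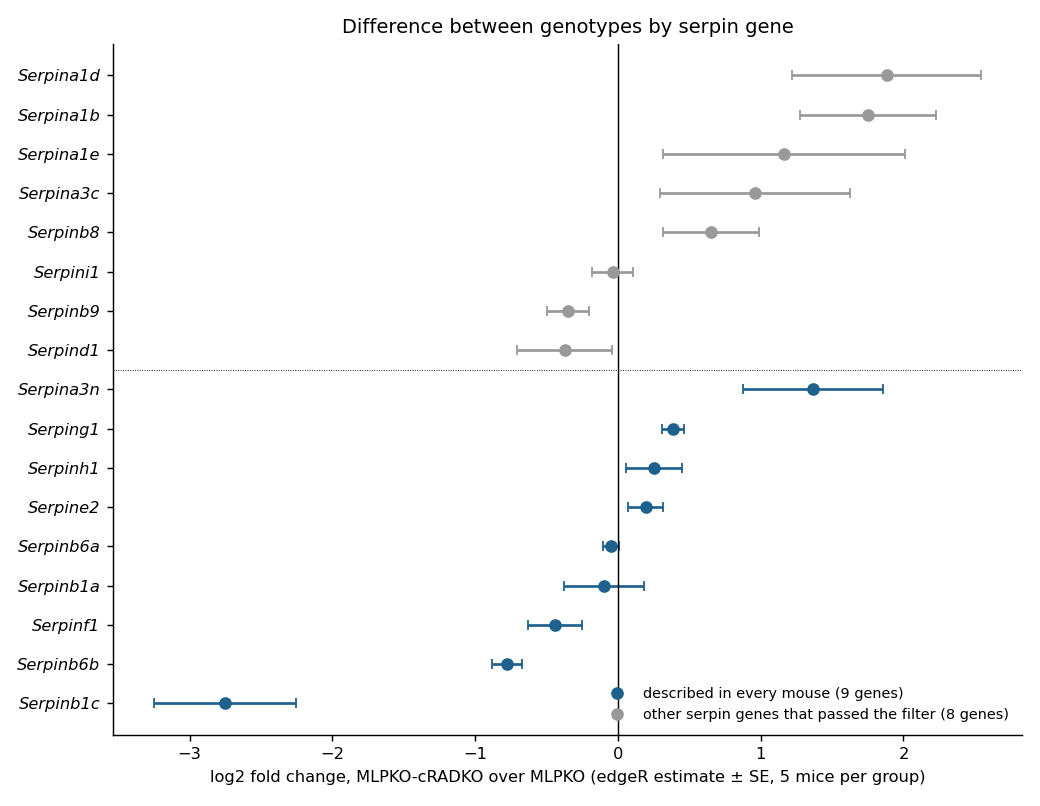
Log2 fold change of MLPKO-cRADKO over MLPKO (horizontal axis, edgeR estimate with SE, 5 mice per genotype) for the 9 genes described in every mouse (below the dotted line) and 8 other serpin genes (above it). Serpinb1c lies farthest from 0, at −2.75, and the wide bars of Serpina1d and Serpina1e belong to genes with few counts.

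The 9 genes were then set beside all other genes by how they varied between mice of the same genotype, as the Pearson correlation of log2 CPM over the 10 mice once each genotype mean was subtracted. These values are a description over few mice that share libraries and depth. Serpina3n varied most like Ctsa, Stat3 and Ecm1 (r = 0.938, 0.937 and 0.937). Serpinh1 varied most like Xbp1, a regulator of endoplasmic reticulum stress, Tox3 and Tgfb2 (r = 0.972, 0.953 and 0.947), and Serping1 like Flt4, the lymphatic VEGF receptor, Kcnn3 and Otulinl (r = 0.966, 0.934 and 0.924). For Serpinf1 the nearest were Ltbp2, a matrix protein, Nkd2 and Slc16a3 (r = 0.974, 0.964 and 0.963), and for Serpine2 they were Scml4, Rnft1 and Pds5a (r = 0.975, 0.951 and 0.948). Serpinb1c lay nearest to Kcnma1, Chst2 and Igfbp7 (r = 0.982, 0.972 and 0.967) and Serpinb1a to Atp8b1, Rin1 and Slc6a9 (r = 0.965, 0.963 and 0.954). Nearest to Serpinb6a were Wdr75, Uqcc3 and Ndufb3 (r = 0.978, 0.934 and 0.917), and nearest to Serpinb6b were Ccdc65, Fam204a and Psmd9 (r = 0.901, 0.881 and 0.870). Without MLPKO mouse 2 the lowest of these r was 0.891 and the highest 0.978. Without MLPKO-cRADKO mouse 3, Serpina3n with Ecm1 was at 0.856 and Serpinb1c with Kcnma1 at 0.999. Among the 9 genes themselves, the 36 pairs had r from −0.34 to 0.88 with a median of 0.36; the pair at 0.88 was Serpinf1 and Serpinb1c, at 0.77 without MLPKO mouse 2, and Serpinb1a with Serpinb1c went from 0.72 to 0.37 without it.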

How the data were processed

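RNA-seq of ventricle from 10 mice (5 per genotype by the labels, 1 polyA library per mouse) was analysed. The authors deposited raw counts per gene, made with STAR on GRCm39 and featureCounts; versions, strand and settings for shared reads are not given in the sources used here. Counts from 1 to 20 were even in 73.7% to 80.3% of cases, against 51.0% to 56.5% above 1000; the cause was not tested.

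The filter took its wording from the study's methods. It kept genes over 10 counts in 6 or more of the 10 mice and left out Gm and Rik genes (13452 genes). The study also left out non-annotated genes and reports a smaller number of genes ranked for enrichment, so the filters did not leave the same genes. Counts were scaled by TMM, and normalized counts are each library's counts divided by its scaled size, times the mean scaled size. The genotype test was edgeR 4.0.16 quasi-likelihood (R 4.3.3), with p Benjamini-Hochberg adjusted over all genes. Alternatives were RLE and upper quartile scaling, DESeq2 1.42.0 (the authors' tool), limma-voom (limma 3.58.1), other filters, the mouse number as a block, and leaving out each mouse. Transcripts and sequences came from GENCODE M39 on GRCm39, shared windows from BLAST+ 2.17.0 and alignments from Biopython 1.88.

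The serpin genes and all lists were chosen with earlier results of these data known. Named were the 9 genes, the other serpin genes past the filter, of each partner list those called or, where fewer than 2, the 2 highest per kilobase, and the 3 genes most correlated with each of the 9. Other names are said to be chosen after their values were seen, are list genes called by a test, or are markers given beside a called one. Of the 18 serpin genes past the filter, 1 is not reported here.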

Additional observations from a re-analysis of the deposited data

Results flagged for a closer look

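In a group of 5 mice, a mouse was taken as far from the others where its gap to the nearest exceeded 0.71 of the group's range (Dixon's test, which marks about 1 in 20 groups by chance); 10 of 106 groups, over 53 named genes, met this. MLPKO mouse 2 accounted for 5 of them. It had 245 normalized counts of Serpinb1a against 94.8 to 115 in the other 4 MLPKO mice, and 473 of Serpinb1c against 102 to 187. Serpinb9 had 1266 in this mouse against 713 to 796. These genes lie in the chromosome 13 cluster. Serpinb6b, annotated there next to both Serpinb1c and Serpinb9, had 2864 in this mouse against 2724 to 3470. The same mouse had 2736 counts of the thrombin receptor F2r against 1448 to 1711, and 16179 of the clearance receptor Lrp1 against 9620 to 11423. MLPKO mouse 5 had 89.4 counts of Serpina3c against 10.5 to 27.7. MLPKO-cRADKO mouse 3 had 3773 counts of Serpina3n against 518 to 1060 in the other 4 mice of its genotype, 504 of tissue factor F3 against 806 to 858, and 883 of Hp against 4.95 to 68.3. MLPKO mouse 4 had 1110 counts of Ctsc against 681 to 792.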

How the results depend on the processing

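The 3 genes called among the 9 (Serping1, Serpinb1c and Serpinb6b) were also called under both other scalings, without the filter, with Gm and Rik genes kept, and in DESeq2 and limma-voom. Of all 13452 genes tested, DESeq2 called 1298 against 369 by edgeR. It called 1 of the 8 other serpin genes against 0, and 13 of the 106 partner genes against 4. Limma-voom called 2 partner genes. The cause of these differences was not tested. The partner genes called by DESeq2 and not by edgeR were C1ra, Colgalt2, Ctsc, Ctss, Il6st, Masp1, P4hb, Steap4 and Vtn. The 9 genes were chosen on this contrast, so their calls here are a description and no support.

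Leaving out each mouse gave 47 to 828 genes called in all, with 47 without MLPKO mouse 5 and 828 without MLPKO mouse 4. It gave 1 to 3 of the 9 genes, with Serpinb6b alone called without MLPKO mouse 5 or MLPKO-cRADKO mouse 2 or 5, 0 to 1 of the other serpin genes and 0 to 9 partner genes. The log2 fold change then ranged from 0.11 to 0.27 for Serpine2, −0.58 to −0.27 for Serpinf1, 0.35 to 0.45 for Serping1, 0.14 to 0.45 for Serpinh1, 0.65 to 1.59 for Serpina3n, −0.20 to 0.22 for Serpinb1a, −3.05 to −2.17 for Serpinb1c, −0.09 to −0.02 for Serpinb6a and −0.83 to −0.72 for Serpinb6b.

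Both genotypes number their mice 1 to 5, but these are different mice. Mice of the same number deviated from their group means with correlations of −0.042 to 0.152, so the numbers did not pair them. With the replicate block, 281 genes, the same 3 of the 9 genes, 0 other serpin genes and 6 partner genes were called.

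Serpinb1c rests on 15 to 47 counts per MLPKO-cRADKO mouse, and the Serpina1 copies on fewer than that in several mice, so their fold changes are the least certain.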
